A study of Mus musculus with 2 samples.

Results

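The Asb, Trim and F-box families of ubiquitin ligase proteins were followed in mouse hearts that carried a hypertrophic cardiomyopathy allele and in wild-type hearts. Members were all table entries whose symbol begins with Asb, Trim, Fbxo, Fbxl or Fbxw followed by a digit, which gave 161 of 30385 entries (18 Asb, 66 Trim, 37 Fbxo, 18 Fbxl and 22 Fbxw). The groups were MHC403 (genotype MHC403/+, 1 copy of a human missense mutation in the myosin heavy chain) and WT (wild type), both on the 129/SvEv strain and aged 8 to 16 weeks. Mice of both genotypes were given the calcineurin inhibitor CsA (cyclosporine A) at 15 mg/kg under the skin, 2 injections a day for 2 weeks. There was no group without the drug, so its effect was not measured. RNA was sequenced by 5′RNA-seq, in which intact polyA RNA is read near its 5′ ends, and the biological replicates of each genotype had been pooled, so there were 2 libraries, 1 per genotype. The sources used here give no number of animals per pool, and no difference below has a replicate check or a p-value.

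Ubiquitin ligases choose which proteins receive ubiquitin, the tag that sends proteins to the proteasome. F-box proteins are the interchangeable substrate receptors of SCF ligases, which are built on Skp1, cullin 1 and Rbx1. Asb proteins, with ankyrin repeats and a SOCS box, play the same part in ECS ligases, which are built on elongins B and C, cullin 5 and Rnf7. Trim proteins mostly carry their own RING domain, which binds the ubiquitin-conjugating enzyme directly. In striated muscle the best-known members are the MuRF proteins (Trim63 is MuRF1, Trim55 is MuRF2 and Trim54 is MuRF3), which sit on the sarcomere, and Fbxo32 (atrogin-1), whose transcript rises when muscle wastes.

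Depth was 5468677 reads in MHC403 and 5481123 in WT. Each ratio divides the share of reads a gene took in MHC403 by its share in WT, and the range after a ratio is its exact (Clopper-Pearson) 95% counting interval, which covers counting error only. Measured genes are those with 50 or more reads in 1 of the libraries, and higher or lower means by a ratio of 2-fold or more. Over all 9507 measured genes the median log2 ratio was 0.57, a ratio of 1.48, so a member near a ratio of 1 lay below the typical gene. Scaling by the median of ratios, which lowers each log2 ratio by 0.55, is given beside the main counts. Under it 4 members in all kept a ratio of 2-fold or more, which are named further on. Among all measured genes 26.1% were higher and 2.43% lower with library totals, and 10.9% and 7.59% with median-of-ratios scaling. Markers of the cell types of the heart lay in different directions. Of 8 cardiomyocyte markers, all measured, none was at least 2-fold higher and 1, Myh6, was lower. Their intervals lay wholly below 1 in 5 and wholly above 1 in 2, Actc1 at 1.85 (1.81 to 1.88) and Tnnt2 at 1.05 (1.04 to 1.06). Their summed level was 39005 RPM (reads per 1e+06 library reads) in MHC403 and 55790 in WT, with none at 0. Much of that difference lay in Myh6, with 55171 reads in MHC403 and 132965 in WT. Of 8 fibroblast markers 6 were higher (3225 and 466 RPM summed in MHC403 and in WT), of 8 macrophage and myeloid markers 7 were higher (357 and 110), and of 7 endothelial markers none was 2-fold higher or lower (484 and 381), with none of these markers at 0. With median-of-ratios scaling 4 cardiomyocyte markers and 1 endothelial marker were lower, and 5 fibroblast and 4 macrophage markers were higher. Their part in the ratios of the ligases was not tested, and in pooled tissue fewer cells of a type and less RNA per cell cannot be told apart.

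The upstream sequences of 5 members are shown because these genes mark the ends of what was seen: Asb14, Asb15 and Asb11 are the 3 lower members, Trim63 is the best-known muscle ligase and lay near a ratio of 1, and Trim47 had the highest ratio. Each is the 250 bases before the RefSeq start on the GRCm38.p6 build, written 5′ to 3′ along the gene, at chr14:26894364-26894613 (+), chr6:24527894-24528143 (+), chrX:164436744-164436993 (+), chr4:134314870-134315119 (+) and chr11:116110236-116110485 (-). Capitals mark every match, on either strand, to the E-box CANNTG, the MEF2 site, the CArG box, the FoxO core GTAAACA, the GC box GGGCGG and TATAAA.
Asb14: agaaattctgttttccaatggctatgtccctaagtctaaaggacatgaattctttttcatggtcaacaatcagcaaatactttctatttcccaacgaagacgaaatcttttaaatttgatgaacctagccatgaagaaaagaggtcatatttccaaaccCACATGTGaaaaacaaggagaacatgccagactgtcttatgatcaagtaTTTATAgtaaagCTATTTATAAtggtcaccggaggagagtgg
Asb15: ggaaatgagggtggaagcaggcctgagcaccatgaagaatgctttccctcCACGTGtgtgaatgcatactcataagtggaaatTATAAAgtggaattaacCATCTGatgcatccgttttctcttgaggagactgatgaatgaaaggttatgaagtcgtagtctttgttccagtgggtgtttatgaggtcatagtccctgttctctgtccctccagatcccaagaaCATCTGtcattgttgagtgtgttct
Asb11: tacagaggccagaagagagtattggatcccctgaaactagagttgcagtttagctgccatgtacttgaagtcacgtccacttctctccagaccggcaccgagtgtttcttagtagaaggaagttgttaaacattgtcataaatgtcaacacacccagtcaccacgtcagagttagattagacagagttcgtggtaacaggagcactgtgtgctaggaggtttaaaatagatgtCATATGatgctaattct
Trim63: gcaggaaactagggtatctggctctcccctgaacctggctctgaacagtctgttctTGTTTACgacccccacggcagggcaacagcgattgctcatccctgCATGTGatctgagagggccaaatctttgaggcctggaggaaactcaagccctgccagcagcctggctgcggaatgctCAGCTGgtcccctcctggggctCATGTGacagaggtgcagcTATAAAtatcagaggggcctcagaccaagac
Trim47: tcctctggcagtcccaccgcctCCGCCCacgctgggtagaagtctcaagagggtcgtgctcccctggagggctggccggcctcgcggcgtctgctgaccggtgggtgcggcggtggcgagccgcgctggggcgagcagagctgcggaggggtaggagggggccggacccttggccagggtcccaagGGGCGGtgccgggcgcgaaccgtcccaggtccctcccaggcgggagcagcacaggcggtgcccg
Asb14 held a pair of overlapping E-boxes from -91 to -84, counted back from the base before the start, a MEF2 match from -30 to -21, and TATAAA on the opposite strand from -42 to -37 and, within the MEF2 match, from -27 to -22. Asb15 held 3 E-boxes and a TATAAA from -167 to -162, and Asb11 held 1 E-box. Trim63 held 3 E-boxes, a FoxO core on the opposite strand from -194 to -188 and a TATAAA from -31 to -26. Trim47 held a pair of GC boxes and no E-box. Among 32851 RefSeq windows of the same length, 66.2% held an E-box, 32.7% a GC box, 12.4% a TATAAA, 3.17% a FoxO core, 2.92% a MEF2 match and 1.47% a CArG box. These are matches of letters, not sites shown to be bound. The read counts are on the mm9 build, and the counted and the RefSeq starts were not aligned with each other.

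Of the 161 members, 66 were measured, 62 had reads under the minimum and 33 had no read in either library. Of all 30385 entries, 9507 were measured and 12054 had no read in either library. Among the 66 measured members 17 were higher in MHC403 by 2-fold or more, 3 were lower and 46 lay within 2-fold. The share of higher members, 25.8%, was close to the 26.1% of all measured genes, and the share of lower members was 4.55% against 2.43%. The counting interval lay wholly above 1 in 42 members (63.6%, and 63.2% of all measured genes) and wholly below 1 in 8 (12.1% and 10.3%). The median log2 ratio of the measured members was 0.53, next to 0.57 for all measured genes. The families as a whole were thus near the background in these 2 libraries, and with library totals the Asb family alone had a negative median. It was -0.50 over 9 measured genes, 7 of which are muscle genes, so family and muscle membership overlap there. The medians of the others were positive, at 0.53 for 22 Trim, 0.52 for 18 Fbxo, 0.61 for 8 Fbxl and 0.77 for 9 Fbxw genes, and with median-of-ratios scaling they were -0.014 for Trim, -0.023 for Fbxo, 0.065 for Fbxl and 0.22 for Fbxw.

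**Figure D1:**
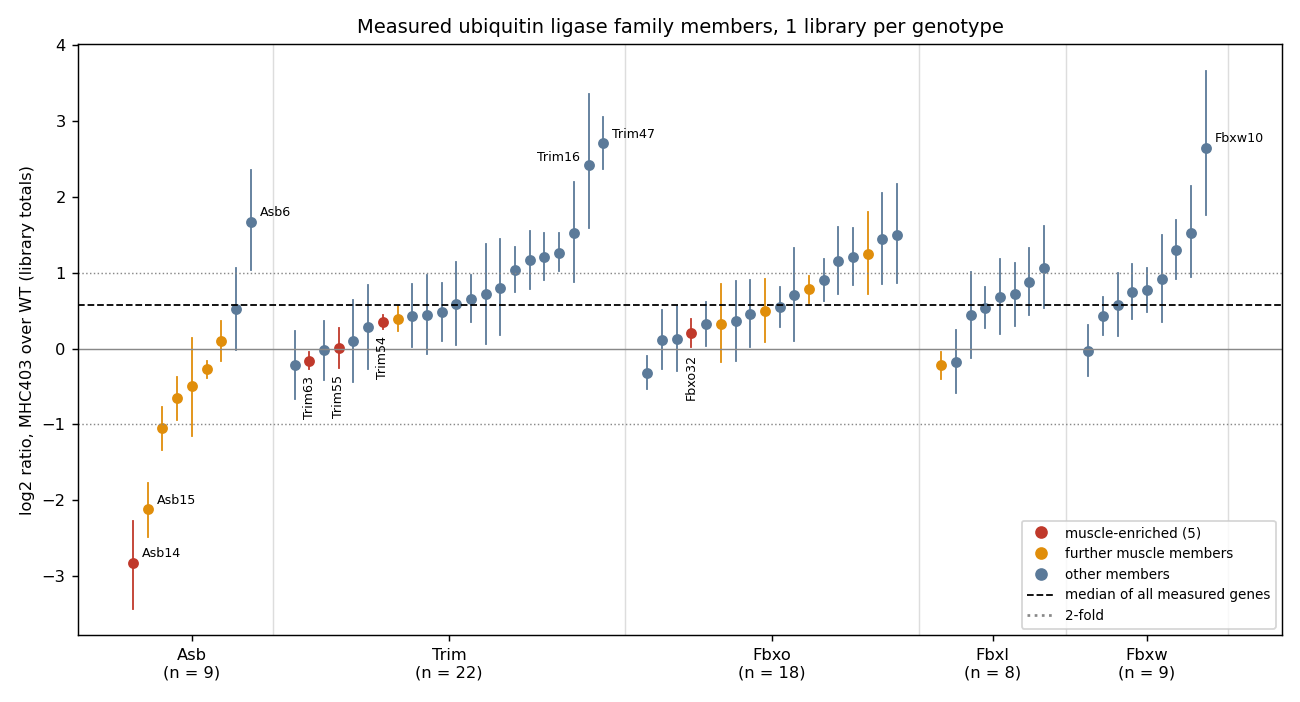
Log2 of the MHC403 over WT ratio (library totals) for the 66 measured members, ordered within each family. Points are genes, bars are exact 95% counting intervals, the dashed line is the median of all measured genes (0.57) and dotted lines mark 2-fold. All 3 genes below the lower dotted line are Asb genes of muscle, while Trim47, Fbxw10 and Trim16 stand highest.

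The 5 muscle-enriched members, Trim54, Trim55, Trim63, Fbxo32 and Asb14, were all measured. Their median log2 ratio was 0.0093, a difference of -0.56 from that of all genes, against 0.58 for the other 61 measured members. Positions below are on mm9. Trim54 (chromosome 5, 31418985 to 31439999), which encodes MuRF3, a microtubule-binding ligase of muscle, had 2279 reads in MHC403 and 1790 in WT, a ratio of 1.28 (1.20 to 1.36). Trim63 (chromosome 4, 133871035 to 133885544), which encodes MuRF1, had 1197 reads in MHC403 and 1339 in WT, a ratio of 0.896 (0.828 to 0.969). Trim55 (chromosome 3, 19544460 to 19591599), which encodes MuRF2, had 242 reads in MHC403 and 241 in WT, a ratio of 1.01 (0.839 to 1.21). The 3 MuRF genes thus lay within 1.3-fold of equality, on both sides of it. Fbxo32 (chromosome 15, 58011634 to 58046433), which encodes atrogin-1, had 534 reads in MHC403 and 463 in WT, a ratio of 1.16 (1.02 to 1.31). The intervals of these 4 genes all lie below the typical ratio of 1.48. The 4 genes would stand at log2 ratios of -0.20 for Trim54, -0.34 for Fbxo32, -0.54 for Trim55 and -0.71 for Trim63 with median-of-ratios scaling.

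Asb14 was the exception among the 5. Asb14 (chromosome 14, 27707790 to 27728443), an ankyrin repeat and SOCS box receptor of striated muscle, had 30 reads in MHC403 and 213 in WT, 7.08-fold (4.82 to 10.8) lower. Its log2 ratio of -2.82 stood at percentile 0.0579 among all measured genes. Without Asb14 the median of the muscle-enriched members was 0.11.

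A further 14 members are known as muscle or heart genes, among them 8 Asb genes, and 12 of the 14 were measured, with a median log2 ratio of -0.060. Most of their Asb genes lay on the same side as Asb14. Asb15 (chromosome 6, 24478144 to 24523164), a muscle gene of the same architecture, had 83 reads in MHC403 and 362 in WT, 4.35-fold (3.42 to 5.59) lower. Asb11 (chromosome X, 160874926 to 160897032) had 154 reads in MHC403 and 319 in WT, 2.07-fold (1.70 to 2.52) lower. These 2 and Asb14 were the only measured members at least 2-fold lower, and Asb14 and Asb15 the only ones at least 4-fold lower, as were 0.326% of all measured genes. Asb10 (chromosome 5, 24038515 to 24046266) had 174 reads in MHC403 and 275 in WT, 1.58-fold (1.30 to 1.92) lower, and was the measured member next to the lower 2-fold limit on its inner side. Asb2 (chromosome 12, 104559352 to 104594211), whose muscle form directs filamins to degradation, had 1192 reads in MHC403 and 1443 in WT, 1.21-fold (1.12 to 1.31) lower. Asb18 had 36 reads in MHC403 and 51 in WT, a ratio of 0.707 (0.449 to 1.11), and Asb8 had 260 reads in MHC403 and 243 in WT, a ratio of 1.07 (0.897 to 1.28). Asb12, with 25 reads in MHC403 and 33 in WT, and Asb5, with 24 and 14, were under the minimum.

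Over the 7 measured muscle Asb genes, Asb14 included, the median log2 ratio was -0.66, and 6 of the 7 lay below 0, as did 19.3% of all measured genes. The counting interval was wholly below 1 in 5 of the 7, against 10.3% of all measured genes. With median-of-ratios scaling 5 members were at least 2-fold lower (7.59% of all measured genes), and all 5 were muscle Asb genes: Asb14, Asb15, Asb11, Asb10 and Asb18. The summed reads of the 9 muscle Asb entries were 362 RPM in MHC403 and 539 in WT. None of Asb14, Asb11 and Asb10 shared a 36-base word with another gene's GENCODE transcripts, while Asb15 shared 0.135% of its words and Asb18 5.41%. The measured markers of skeletal muscle, where these genes are also active, lay on the same side, and those under the minimum did not. All 4 measured markers of 8 had intervals wholly below 1, and 3 of them were lower by 2-fold or more, with a median log2 ratio of -1.45. Ckm, which the heart also expresses, had 7066 reads in MHC403 and 12865 in WT, Myh1 had 80 and 288, Myh2 had 72 and 181 and Myh4 had 132 and 393. The other 4 markers were under the minimum, with Tnnt3 at 24 reads in MHC403 and 1 in WT, Actn3 at 18 and 15, Pvalb at 2 and 0 and Mybpc1 at 0 in both. The summed level of the list, most of it Ckm, was 1352 RPM in MHC403 and 2507 in WT (7394 and 13743 reads). Their part in the Asb ratios was not tested.

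**Figure D2:**
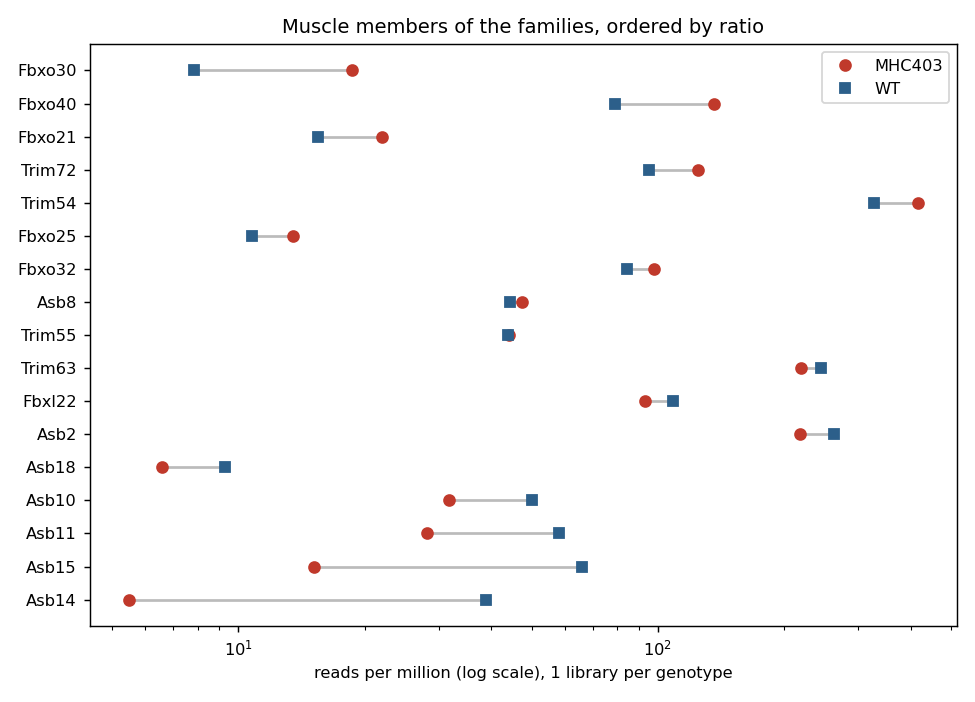
RPM (log scale) in the MHC403 library (circles) and the WT library (squares) for the 17 measured muscle members, ordered from the highest ratio at the top to the lowest at the bottom. 6 of the 7 Asb genes are the lowest rows, with WT to the right, and Asb14 has the widest gap, with 5.49 RPM in MHC403 and 38.9 in WT.

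The muscle members of the Trim and F-box families had higher ratios than most of the muscle Asb genes, though 8 of the 10 lay below the median of all measured genes. All 10 such genes were measured, with a median log2 ratio of 0.34 and none lower by 2-fold. Fbxo40, a muscle F-box protein that targets the insulin receptor substrate IRS1, had 742 reads in MHC403 and 433 in WT, a ratio of 1.72 (1.52 to 1.94). Trim72, the membrane repair protein MG53, had 683 reads in MHC403 and 521 in WT, a ratio of 1.31 (1.17 to 1.48). Fbxo30 (MUSA1), named for its part in muscle wasting, had 102 reads in MHC403 and 43 in WT, a ratio of 2.38 (1.65 to 3.48), and was the 1 muscle member above 2-fold. Fbxo21 had a ratio of 1.41 (1.06 to 1.89), and Fbxo25, the closest relative of Fbxo32, 1.26 (0.881 to 1.80). Fbxl22, a cardiac F-box protein of the Z-disc, had 510 reads in MHC403 and 596 in WT, a ratio of 0.858 (0.761 to 0.967), and its extent overlaps that of Herc1. Fbxo30 was within 2-fold with median-of-ratios scaling, at a log2 ratio of 0.70.

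Outside both muscle sets 49 members were measured, with a median log2 ratio of 0.71. Of these, 16 (32.7%) passed 2-fold upward and none downward, next to 26.1% and 2.43% of all measured genes. With median-of-ratios scaling 4 passed it upward and none downward, next to 10.9% and 7.59%. With library totals Trim47, Trim16 and Fbxw10 passed 4-fold, as did 5.8% of all measured genes. Trim47 (chromosome 11, 115967140 to 115971330), a RING-type Trim ligase, had 547 reads in MHC403 and 84 in WT, a ratio of 6.53 (5.18 to 8.31), and 7.09% of its 36-base words also occur in other genes, mostly Trim65. Trim35, another RING-type Trim protein, had 456 reads in MHC403 and 190 in WT, a ratio of 2.41 (2.03 to 2.86). Trim8, known as a partner of the cytokine signalling inhibitor SOCS1, had 300 reads in MHC403 and 130 in WT, a ratio of 2.31 (1.88 to 2.86). These 3 lie at 2-fold or beyond with library totals, and Trim47 alone of the 3 does so with median-of-ratios scaling, at a log2 ratio of 2.16. Trim41 had a ratio of 2.06 (1.67 to 2.54) and Trim3 of 2.24 (1.73 to 2.93), though the extent of Trim3 overlaps that of another entry.

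Trim16 and Fbxw10 had nearly the same reads, 75 in MHC403 for each, with 14 in WT for Trim16 and 12 for Fbxw10. Their ratios were 5.37 (3.01 to 10.3) for Trim16 and 6.26 (3.38 to 12.7) for Fbxw10. The genes lie on the same strand of chromosome 11, at 62633755 to 62664817 for Trim16 and 62633971 to 62690964 for Fbxw10, so their reads cannot be assigned to 1 of them. With them, Trim47 and Asb6 made up the 4 members that were at least 2-fold higher under median-of-ratios scaling, as were 10.9% of all measured genes. Asb6, a widely expressed Asb receptor, had 86 reads in MHC403 and 27 in WT, a ratio of 3.19 (2.05 to 5.12), on the opposite side from most muscle Asb genes. Of the 7 Asb entries outside the muscle sets that had reads, 4 had fewer scaled reads in MHC403, all of them under the minimum. Over all 18331 entries with reads, 4655 had fewer. Asb3 and Asb4 each had 7 reads in MHC403 and 20 in WT, 2.85-fold (1.16 to 7.98) lower.

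Among the F-box proteins outside muscle, a set of 8 cell cycle and clock receptors had 5 measured entries, 1 higher (20%) and none lower. All measured genes had 26.1% higher and 2.43% lower. The median log2 ratio of the set was 0.55, next to 0.57 for all measured genes. Fbxw11 (beta-TrCP2, which binds phosphorylated beta-catenin and IkB) had 197 reads in MHC403 and 80 in WT at its chromosome 11 entry, a ratio of 2.47 (1.89 to 3.24), and this entry overlaps another. A second entry under that symbol, on chromosome 19, had 77 reads in MHC403 and 41 in WT and overlaps Btrc, so its count is uncertain. Fbxw7, the receptor for cyclin E and Myc, had 149 reads in MHC403 and 152 in WT, a ratio of 0.982 (0.778 to 1.24). Fbxo31, a receptor for cyclin D1, had a ratio of 1.46 (1.22 to 1.75).

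Fbxo7, linked to mitophagy and to a form of parkinsonism, had 92 reads in MHC403 and 34 in WT, a ratio of 2.71 (1.81 to 4.15). Other F-box members at least 2-fold higher were Fbxw9 at 2.89 (1.92 to 4.43), Fbxo42 at 2.83 (1.82 to 4.52), Fbxo9 at 2.32 (1.79 to 3.02), Fbxo38 at 2.23 (1.64 to 3.05) and Fbxl14 at 2.09 (1.45 to 3.06). The start window of Fbxw9 and the extents of Fbxo7 and Fbxl14 overlap other entries, so their reads may be shared. None of these F-box genes passed 2-fold with median-of-ratios scaling, where Fbxw9 had a log2 ratio of 0.98 and Fbxo42 of 0.95. Fbxo6, with 318 reads in MHC403 and 170 in WT, lay just inside 2-fold at 1.87 (1.55 to 2.27). Fbxo3 was the 1 measured member outside both muscle sets whose interval lay wholly below 1, with 309 reads in MHC403 and 386 in WT, a ratio of 0.802 (0.689 to 0.934), and its entry overlaps others.

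The chromatin-associated Trim proteins lay between equality and 3-fold, with 3 of 4 measured, 1 higher and a median log2 ratio of 0.66. Over so few genes the 1 higher is 33.3%, next to 26.1% of all measured genes. Trim33, a ligase for SMAD4 in TGF-beta signalling, had 80 reads in MHC403 and 28 in WT, a ratio of 2.86 (1.84 to 4.58). Trim28 (KAP1), a corepressor of KRAB zinc finger proteins, had 233 reads in MHC403 and 148 in WT, a ratio of 1.58 (1.28 to 1.95). Trim24 had 62 reads in MHC403 and 58 in WT, a ratio of 1.07 (0.737 to 1.56), and Trim66 had 0 in MHC403 and 2 in WT. Of 12 entries for interferon-induced Trim genes 2 were measured: Trim25, the ligase of the RNA sensor RIG-I, with 112 reads in MHC403 and 114 in WT (ratio 0.985, 0.752 to 1.29), and Trim26 with 117 and 87 (ratio 1.35, 1.01 to 1.80).

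The shared core on which the receptors assemble had ratios mostly above 1 and below the typical gene. Of 26 listed genes of the SCF and ECS core, the Nedd8 pathway and the COP9 signalosome, 25 were in the table and all 25 were measured. Their median log2 ratio was 0.31, below the 0.57 of all genes. Of the 25, 1 gene (4%) was at least 2-fold higher and none lower, next to 26.1% and 2.43% of all measured genes. The interval lay wholly above 1 in 16 of the 25 genes and wholly below 1 in none, next to 63.2% and 10.3% of all measured genes. Cullin 5, the scaffold used by Asb proteins, had 181 reads in MHC403 and 173 in WT, a ratio of 1.05 (0.847 to 1.30). Cullin 1, the scaffold used by F-box proteins, had 347 reads in MHC403 and 296 in WT, a ratio of 1.17 with an interval wholly above 1, and its adaptor Skp1a 615 and 661, a ratio of 0.933 (0.834 to 1.04). Cand1, which exchanges F-box receptors on cullin 1, was the 1 gene above 2-fold, with 252 reads in MHC403 and 69 in WT, a ratio of 3.66 (2.79 to 4.85).

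Other ligases and ligase subunits known from striated muscle, with symbols outside the member rule, were spread over both directions. The list includes the F-box proteins Btrc, Skp2 and Ccnf, and Btrc overlaps the chromosome 19 entry of Fbxw11. The list had 20 measured genes, of which 4 (20%) passed 2-fold upward and 1 (5%) downward, next to 26.1% and 2.43% of all measured genes. Their median log2 ratio was 0.51, next to 0.57 for all measured genes. With median-of-ratios scaling 1 was higher (Rnf115) and 3 were lower (Rnf207, Klhl31 and Klhl38), next to 10.9% and 7.59% of all measured genes. The higher genes were Rnf115 at 5.21 (3.61 to 7.71), the SMAD ligase Smurf1 at 2.81 (2.13 to 3.74), Cblb at 2.61 (2.02 to 3.40) and the p53 ligase Mdm2 at 2.43 (1.90 to 3.13). Rnf207, a cardiac RING protein, had 70 reads in MHC403 and 172 in WT, 2.45-fold (1.85 to 3.29) lower. Regulators known to act on Trim63 or Fbxo32 had a median of 0.26 over 15 measured genes, below the 0.57 of all measured genes. Of the 15, 2 were higher (13.3%) and none lower, next to 26.1% and 2.43% of all measured genes. With median-of-ratios scaling 1 was higher (Nfkb2) and 3 were lower (Foxo4, Klf15 and Ppargc1a), next to 10.9% and 7.59% of all measured genes. The FoxO factors, which drive Fbxo32 and Trim63 in wasting muscle, had ratios of 1.24 (0.936 to 1.66) for Foxo1, 0.920 (0.751 to 1.13) for Foxo3 and 0.718 (0.622 to 0.827) for Foxo4. Klf15, a glucocorticoid-induced factor, had 127 reads in MHC403 and 213 in WT, a ratio of 0.598 (0.476 to 0.748). The higher regulators were Nfkb2 at 3.46 (2.79 to 4.33) and Nfkb1 at 2.06 (1.58 to 2.71).

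Proteins that MuRF or atrogin-1 ligases bind or tag were the most divided list. The 18 genes, all measured, had 4 higher (22.2%) and 3 lower (16.7%), next to 26.1% and 2.43% of all measured genes. The higher share was thus near the background. Their median log2 ratio was 0.060. With median-of-ratios scaling 4 were higher and 8 lower, next to 10.9% and 7.59% of all measured genes. The LIM protein Fhl1 was highest at 12.7 (11.4 to 14.3), and the other higher genes were Vim, Flnc and Des. The sarcomeric genes Myh6, Myh7 and Myl2 were the 3 lower genes. The MuRF and atrogin-1 transcripts themselves lay within 1.3-fold of equality in the same libraries with library totals. With median-of-ratios scaling all 4 were lower, Trim63 by 1.63-fold, Trim55 by 1.45-fold, Fbxo32 by 1.26-fold and Trim54 by 1.15-fold.

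**Figure D3:**
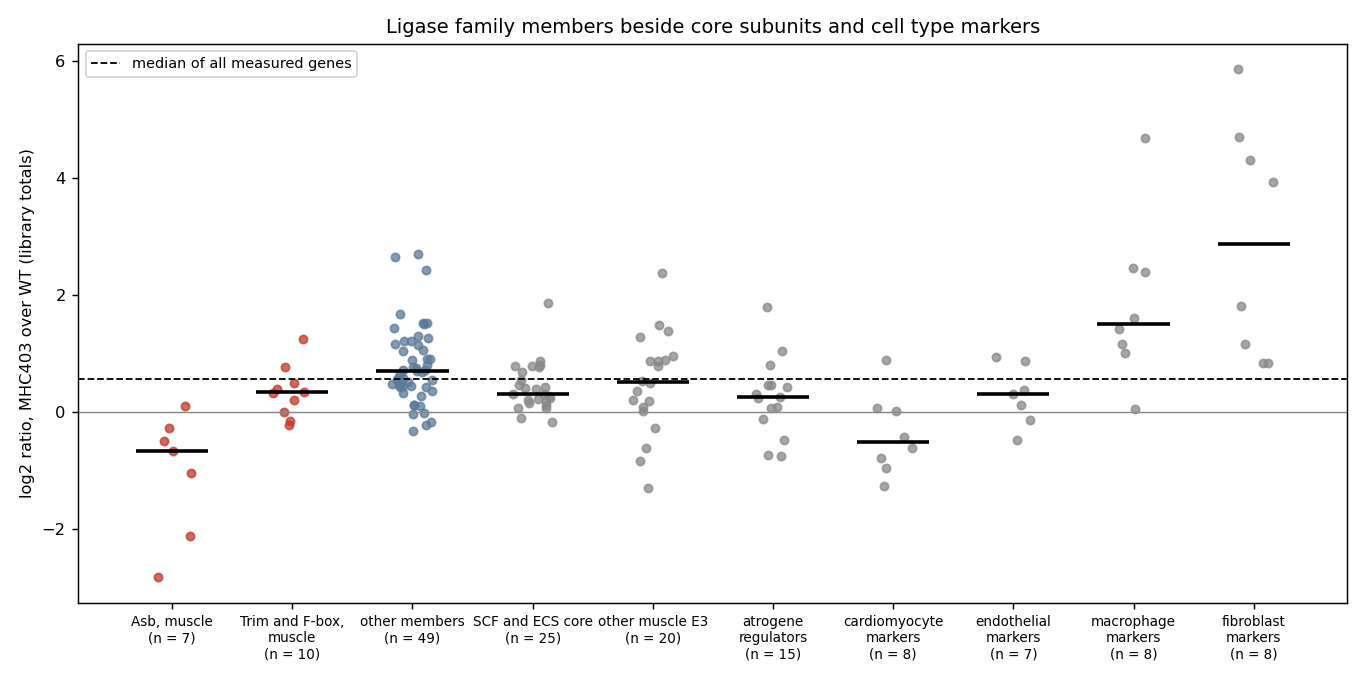
Log2 of the MHC403 over WT ratio (library totals) of measured genes in each group, with group medians as bars and the median of all measured genes dashed. The medians lie below 0 for muscle Asb genes (-0.66) and cardiomyocyte markers (-0.52), each with genes on both sides of 0. Medians are 0.34 for muscle Trim and F-box genes, 0.71 for other members, 1.51 for macrophage and 2.87 for fibroblast markers.

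Base composition before the start also differed among the measured members, of which 47 matched a RefSeq window by symbol, with 64 windows. The G+C share of the 250 bases had a median of 43.6% over the 3 lower members, 56.8% over 34 of the 46 within 2-fold and 64.2% over the 10 of 17 higher members with a window, next to 52.4% over all 32851 windows. The ratio of observed to expected CpG was 0.253 at the median over the windows of both muscle sets and 0.73 over those of the other measured members. Fbxw10 was an exception, with 35.6% G+C and a high ratio. These groups were formed from the ratios themselves or from known muscle expression, and the values are given as a description.

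**Figure D4:**
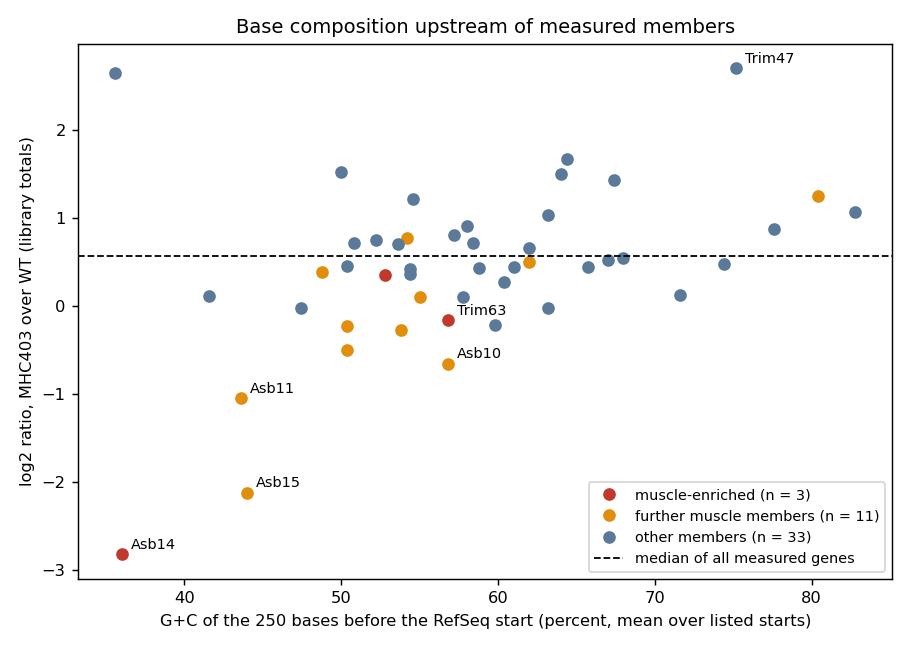
Log2 ratio, MHC403 over WT, against the G+C percentage of the 250 bases before the RefSeq start (mean over a gene's listed starts) for the 47 measured members with a sequence. Asb14, Asb15 and Asb11 lie at the lower left, at 36 to 44% G+C, and Trim47 at the upper right, at 75.2%.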

How the data were processed

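Heart RNA of MHC403/+ and wild-type mice was read in 1 pooled library per genotype, grouped by the genotype label. Per the submitters' processing notes, TopHat 1.0.14 and the mm9 build were used; the counter, strand use and handling of multiple matches were not given in the sources used here. Read counts per gene, without normalization, were deposited. The authors' deposited normalized reads were RPM, equal on recomputation to reads over the library total (largest difference 4.94e-06). The deposited fold, per the file headers a ratio of MHC403 to WT, matched the recomputed ratio over 13848 entries. The deposited p-value names no test and was not used. The authors' deposited start-site score has no stated formula. Of 215 groups of entries with the same listed start windows and different gene extents, 183 had different reads, so counts were not limited to those windows and levels are not compared between genes.

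Ratios and Clopper-Pearson intervals were computed with Python 3.11.15 and scipy 1.17.1, and TMM factors with edgeR 4.0.16. With 1 library per genotype no test was possible. Equal counts of 50 give an interval of 0.662 to 1.51. Reads carry no molecular identifiers, so amplification, pooling and animal variation are not covered. A library at 0 was set to a floor of 3 counts in medians. The computation was tested on simulated counts. Of the measured members 5 had start windows, and 21 had gene extents, that overlap another entry. Upstream sequences are from RefSeq (121 of 161 members matched by symbol), and 36-base words from GENCODE M21 transcripts, sense strand.

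Named members were the 5 muscle-enriched ones, members at least 2-fold higher or lower with an interval past 1, the 10 with most reads, and role sets for muscle, interferon, chromatin, cell cycle and clock. The members and lists were chosen with earlier results of these data known. Values of 1 member of these sets and of 1 marker are not reported here.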

Additional observations from a re-analysis of the deposited data

How the results depend on the processing

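The counts of members past 2-fold depended on the scaling and the limits. The 17 higher and 3 lower members became 4 and 5 with TMM as well as with median-of-ratios scaling. They became 9 higher without mitochondrial entries, 4 higher with a minimum of 200 reads and 10 higher among entries whose extents overlap no other (chosen after seeing the data). They became 5 lower with a minimum of 20 reads, 31 and 9 with 1 read in each library, and 42 and 8 by whole intervals. All 4 higher members with median-of-ratios scaling were among the 17, and all 3 lower ones among the 5.

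The median of measured members (0.53) became -0.016 with median-of-ratios, -0.014 with TMM, 0.24 without mitochondrial entries and 0.35 with at least 200 reads. The muscle-enriched median (0.0093) became -0.54, -0.54 and -0.28 under the 3 scalings, and that of the other members (0.58) became 0.029, 0.031 and 0.28. With median-of-ratios and TMM scaling the SCF and ECS core (0.31) became -0.23 and -0.23, the other muscle ligases (0.51) -0.035 and -0.033, the atrogene regulators (0.26) -0.29 and -0.28 and the bound proteins (0.060) -0.49 and -0.48. Without mitochondrial entries these became 0.020 for the core, -0.032 for the regulators and -0.23 for the bound proteins, which were at -0.30 with at least 200 reads. The Trim and Fbxo medians turned to -0.014 and -0.023 with median-of-ratios and to -0.012 and -0.021 with TMM. With TMM the counts of higher and lower genes matched those with median-of-ratios in the 4 context lists. Without mitochondrial entries they were 3 and 2 for the other muscle ligases, 1 and 2 for the regulators and 4 and 7 for the bound proteins. A scaling moves every gene by the same step, so the order of members did not change. No paired analysis was possible because each genotype has 1 library.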

Other observations

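Members with few reads were not spread evenly over the families. All 12 Fbxw genes on chromosome 9 had no read in either library, as had 13 of 66 Trim genes, whereas 9 of the 10 Fbxw entries elsewhere were measured. Among all 30385 entries 12054 had no read in either library, and 33 of the 161 members. A count of 0 allows up to 0.549 RPM in MHC403 and 0.547 in WT.

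Of the 9 interferon-induced Trim entries with reads under the minimum, 8 had fewer scaled reads in MHC403 than in WT and 1, Trim21, had more (17 reads in MHC403 and 13 in WT). Over all 18331 entries with reads, at any depth, 4655 had fewer scaled reads in MHC403. Trim30a had 3 reads in MHC403 and 14 in WT, Trim34a 11 and 17, and Trim5 and Trim12a the same 0 and 8. Several of these share extents, and 48.4% of the 36-base words of Trim5 and 46.4% of those of Trim34a occur in other genes, so they are not separate observations. Of 10 interferon-stimulated markers 8 had under 50 reads in both libraries. Irf7 had 61 reads in MHC403 and 40 in WT, a ratio of 1.53 (1.01 to 2.34). Lymphocyte markers had at most 12 reads in either library.

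In the authors' deposited table a start-site score above 0 was given for 27 of the 66 measured members (40.9%) and for 36.2% of all measured genes. The authors' deposited table gave the highest such score among measured members to Trim47 (48), followed by Fbxo40 (37).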
